A study of Mus musculus with 24 samples.

Results

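The T-box transcription factors examined here are 10 genes, *T* (which encodes Brachyury), *Eomes*, *Tbr1*, *Tbx1*, *Tbx2*, *Tbx3*, *Tbx4*, *Tbx5*, *Tbx6* and *Tbx20*, out of 19409 gene symbols in the deposited expression table. Each was taken by its symbol, as the row with the largest sum of the 12 normalised read counts. The table had 20633 rows, since some symbols have several transcripts, and *Tbx1* and *Tbx4* each had 2. All 10 genes passed the filter on low counts. Expression was measured by calibrated RNA sequencing (cRNA-seq) of rRNA-depleted total RNA from mouse embryonic stem cells (ESCs) of strain E14. There were 2 lines, each with 3 replicates left untreated and 3 replicates given 800 nM 4-hydroxytamoxifen (OHT), which activates Cre recombinase, for 72 h. The PRC1CKO line (clone B9) carries Ring1a-/-, Ring1bfl/fl and Rosa26::ERT2-Cre, so that OHT removes RING1B from cells that already lack RING1A. The PRC1CPM line (clone 41) carries Ring1aI50A/D53K together with the switchable allele Ring1b(WT->I53A/D56K)fl/fl and the Cre transgene Rosa26::ERT2-Cre, so that OHT switches *Ring1b* from the wild-type to the catalytic mutant form in cells whose RING1A is already mutant. The untreated cells of both lines therefore carry a *Ring1a* defect and the Cre transgene as well, and each line is 1 clone. Cells were grown on gelatin with serum and leukemia inhibitory factor, and *Drosophila* SG4 cells were mixed in before extraction as a spike-in. Libraries held from 14668159 to 27016156 reads over gene bodies, where the mates of a pair were mostly counted singly, since 81.7% of the 25847 values from 1 to 10 reads were even. The labels do not say that replicates were separate cultures, so p-values measure the spread between these samples. Because the RNA came from whole cultures, a higher level in every cell and a larger share of cells with the transcript cannot be told apart.

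T-box proteins bind DNA through a conserved domain, the T-box, and act as activators or repressors of transcription that set cell identity in the early embryo. *T*, *Eomes* and *Tbx6* act in the primitive streak and its descendants, *Tbx1*, *Tbx5* and *Tbx20* in the pharynx and heart, *Tbx4* and *Tbx5* in the limb buds, and *Tbr1* in neurons of the cortex. *Tbx2* and *Tbx3* are repressors used in many organs, and *Tbx3* is also transcribed in ESCs, where it is linked to self-renewal. Polycomb repressive complex 1 (PRC1) contains RING1A or RING1B, which place ubiquitin on histone H2A, and it keeps many developmental genes silent in ESCs. The comparisons ask how these genes are expressed when RING1B is removed and when only its catalysis is removed.

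The targeted genes do not check the labels here, because reads were counted over the whole gene body and Cre acts on a small part of *Ring1b*. The normalised read count of *Rnf2*, which encodes RING1B, was 1756, 1436 and 1385 in the untreated and 1489, 1565 and 1585 in the OHT-treated PRC1CKO libraries. In the PRC1CPM line the values were 1850.1, 1659 and 1578 untreated and 1724, 1295 and 1513 after OHT. *Ring1*, which encodes RING1A, had 166 to 313 in the 6 PRC1CKO libraries and 111 to 182 in the 6 PRC1CPM libraries, so its row was not empty in the line that carries the deletion. All 10 ESC markers, among them *Pou5f1*, *Sox2* and *Nanog*, were detected in every library, and their summed normalised read count ranged from 37689 to 74847.

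RefSeq promoter windows of GRCm38.p6, which run from 250 bases before to 50 bases after a start site, were matched for 7 of the 10 genes, not for *Tbx2*, *Tbx3* and *Tbx5*. The 250 upstream bases of 4 of them are shown as the windows of *Tbx20*, which has the most CG dinucleotides, of *T* and *Eomes*, genes of the primitive streak, and of *Tbx6*, which was not called in either line. They lie at chr9:24774304-24774553 (minus strand) for *Tbx20*, chr17:8434173-8434422 (plus) for *T*, chr9:118477939-118478188 (plus) for *Eomes* and chr7:126781233-126781482 (plus) for *Tbx6*. They are written 5′ to 3′ on the gene's strand, and capitals mark each CG.
Tbx20: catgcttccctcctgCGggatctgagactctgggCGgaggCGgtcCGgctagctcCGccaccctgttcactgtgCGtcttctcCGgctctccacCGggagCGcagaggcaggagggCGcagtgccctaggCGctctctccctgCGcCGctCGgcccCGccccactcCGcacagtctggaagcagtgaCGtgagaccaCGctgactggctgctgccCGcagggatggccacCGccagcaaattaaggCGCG
T: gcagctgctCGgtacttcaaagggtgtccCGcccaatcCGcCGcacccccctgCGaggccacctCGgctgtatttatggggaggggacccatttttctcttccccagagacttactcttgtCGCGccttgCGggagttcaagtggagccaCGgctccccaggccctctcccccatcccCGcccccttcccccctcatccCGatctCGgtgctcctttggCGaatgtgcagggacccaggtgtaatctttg
Eomes: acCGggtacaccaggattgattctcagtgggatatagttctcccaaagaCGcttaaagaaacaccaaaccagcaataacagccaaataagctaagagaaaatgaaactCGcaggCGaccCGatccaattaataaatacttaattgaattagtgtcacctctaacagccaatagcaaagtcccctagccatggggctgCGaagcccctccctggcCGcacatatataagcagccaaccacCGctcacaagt
Tbx6: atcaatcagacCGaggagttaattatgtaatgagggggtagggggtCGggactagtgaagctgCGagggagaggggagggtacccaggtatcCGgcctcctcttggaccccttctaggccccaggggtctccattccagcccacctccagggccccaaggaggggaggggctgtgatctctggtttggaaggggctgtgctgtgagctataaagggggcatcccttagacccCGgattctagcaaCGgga
In the whole 300-base window, *Tbx20* had 26 CG dinucleotides, *T* 17, *Tbx1* 16, *Eomes* 10, *Tbx4* 8, *Tbr1* 7 and *Tbx6* 7. The median of all 32851 windows was 7, with quartiles of 3 and 20, so *Tbx20* lay above the upper quartile and *Tbr1* and *Tbx6* at the median. *Tbx1*, with 16 CG dinucleotides, rose more in both lines than *T*, with 17. The relation of CG number to the OHT effect was not tested. The window of *Tbx4* begins at another annotated start, 6702 bases from that of the row used here. The T-box binding motif AGGTGTGA, or its reverse complement TCACACCT, was in none of the 7 windows (0 of 7) and in 1.28% of all windows.

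After OHT treatment, 7 of the 10 T-box genes were expressed at higher levels in PRC1CKO cells and 8 in PRC1CPM cells, and none (0) was called lower in either line. *T*, *Eomes*, *Tbx1*, *Tbx2*, *Tbx4*, *Tbx5* and *Tbx20* rose in both lines. *Tbx3* rose in PRC1CPM cells and missed the fold threshold in PRC1CKO cells, and *Tbr1* and *Tbx6* passed in neither. A gene was called changed where limma gave an adjusted p under 0.05 with more than a 1.5-fold change on log2(normalised read count + 1), with p-values adjusted over 16940 rows. Of all rows tested, 16.5% were called higher and 3.09% lower in PRC1CKO cells, and 13.1% and 1.4% in PRC1CPM cells. The 10 genes had a median log2 fold change of 1.96 in PRC1CKO and 1.55 in PRC1CPM cells, beside 0.12 and 0.10 over all rows. Every OHT-treated library lay above every untreated library for 8 of the 10 genes in PRC1CKO cells, where 22.1% of all rows did so, and for 8 in PRC1CPM cells, where 18.7% did so.

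**Figure D1:**
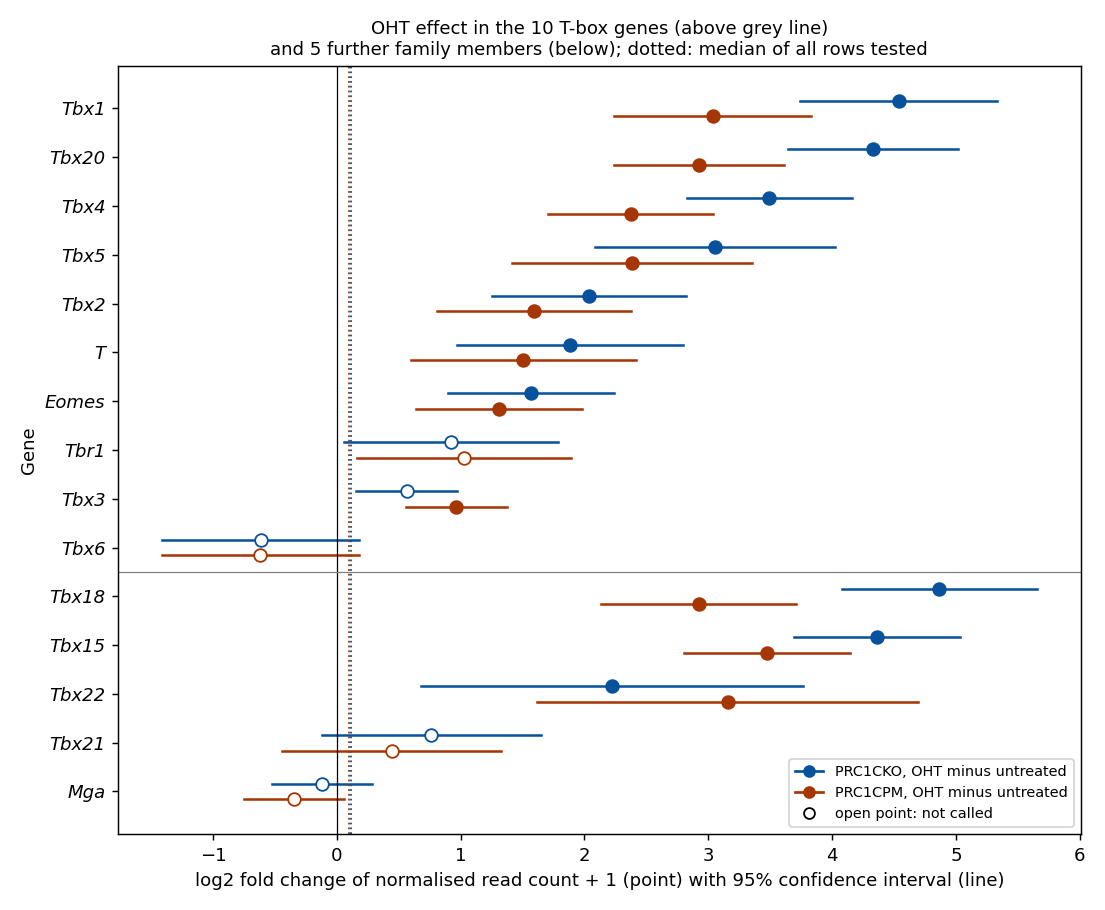
Log2 fold change after OHT treatment (x axis) for the 10 T-box genes and 5 further family members (y axis) in PRC1CKO (blue) and PRC1CPM cells (orange), with 95% confidence intervals as lines, open points for genes not called and dotted lines at the medians of all rows, 0.12 and 0.10. *Tbx1* and *Tbx20* lie farthest to the right of the 10 in both lines, and *Tbx6* is the gene of the 10 with points below 0.

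The scale of the values rests on the spike-in. With trimmed-mean (TMM) scaling in its place, the median of all rows shifted from 0.12 to -0.0019 in PRC1CKO and from 0.10 to -0.0072 in PRC1CPM cells. Without the correction by genomic DNA the medians were -0.037 and 0.39. No T-box gene changed direction in either line under these scalings, and the same 7 and 8 genes were called under TMM. Without the correction by genomic DNA *Tbr1* was called as well in PRC1CPM cells. Relative to the median of all rows, the log2 fold change of *Tbx1* was 4.42 in PRC1CKO and 2.94 in PRC1CPM cells, and that of *Eomes* was 1.45 and 1.21.

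Levels between genes were compared per kb of gene body, introns included. In untreated PRC1CKO cells *Tbx3* stood apart at 479 ± 47.3 normalised read counts per kb (SD, n = 3). *Tbx6* followed at 16.7 ± 5.42, *Eomes* at 10.4 ± 3.78, *T* at 7.25 ± 7.96, *Tbx2* at 3.38 ± 2.09 and *Tbr1* at 2.37 ± 0.474. *Tbx4*, *Tbx1*, *Tbx20* and *Tbx5* were the lowest, at 0.948 ± 0.174, 0.923 ± 0.353, 0.708 ± 0.410 and 0.193 ± 0.0975. Neighbours in this order overlapped in their libraries except *Tbx3* and *Tbx6*, *Tbr1* and *Tbx4*, and *Tbx20* and *Tbx5*. After OHT *Tbx3* remained the highest at 708 ± 78.1 in PRC1CKO cells, and *Tbx5* the lowest at 1.65 ± 0.397. *Tbx1* then stood at 23.2 ± 2.89, between *Eomes* at 30.2 ± 6.76 and *T* at 18.6 ± 4.57, and its libraries overlapped those of *T* and *Eomes*. *Tbx6* was at 10.7 ± 3.05 after OHT.

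**Figure D2:**
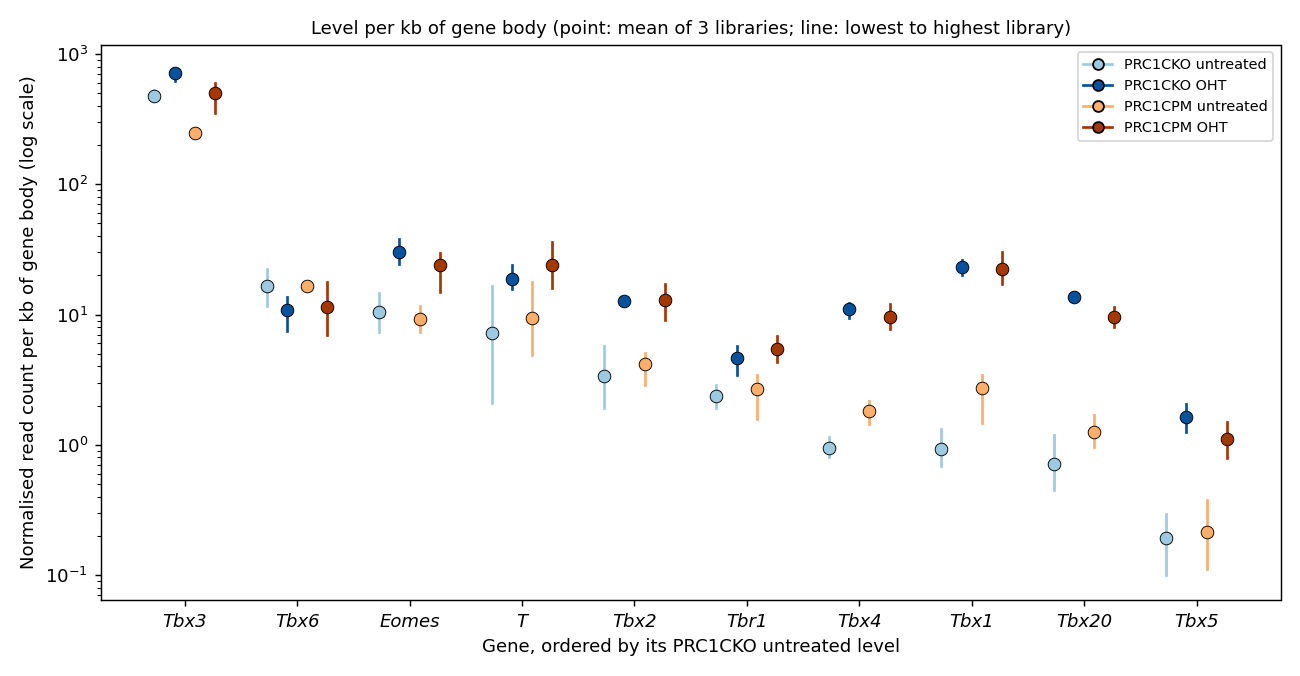
Normalised read count per kb of gene body (y axis, log scale) of each T-box gene (x axis, ordered by its untreated PRC1CKO level) in the 4 conditions, as the mean of 3 libraries (points) and the span from the lowest to the highest library (lines). *Tbx3* lies far above the other genes in all 4 conditions, from 249 to 708 per kb, and *Tbx5* lies lowest in each.

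Among the genes of the primitive streak and its descendants, *Eomes* and *T* rose and *Tbx6* did not. *Eomes* (NM_001164789), which acts in anterior mesendoderm and in trophoblast, lies at chr9:118478189-118486132 with 6 exons. Its normalised read count was 116, 58.5 and 72.7 in the untreated and 299, 194 and 227 in the OHT-treated PRC1CKO libraries. In PRC1CPM cells the values were 92.1, 58.4 and 70.5 untreated and 234, 118 and 216 after OHT. The conditions did not overlap in either line. For *Eomes* the log2 change came to 1.57 in PRC1CKO (standard error 0.33, limma adjusted p = 0.000242) and 1.31 in PRC1CPM cells (standard error 0.33, adjusted p = 0.00325). An antisense transcript, *Gm33460*, is annotated over *Eomes*, and since the sources used here do not state that counting used strand, its reads cannot be told apart.

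*T* (NM_009309), which is needed for mesoderm and the notochord, lies at chr17:8434423-8442496 with 8 exons. It had 133, 26.2 and 16.9 normalised read counts in the untreated and 193, 126 and 132 in the OHT-treated PRC1CKO libraries. The PRC1CPM values were 143, 45.2 and 39.3 untreated and 291, 128 and 162 after OHT. Replicate 1 was the highest untreated library in both lines and overlapped the OHT-treated libraries. In both lines *T* was higher after OHT in all 3 pairs of the same replicate number. With that number as a block, its limma adjusted p was 5.03e-13 in PRC1CKO and 1.95e-08 in PRC1CPM cells. In the block fit the spread is taken almost wholly from the trend, so these p-values rest little on the spread of *T* itself. The log2 fold change of *T* was 1.88 in PRC1CKO (standard error 0.45, limma adjusted p = 0.00122) and 1.51 in PRC1CPM cells (standard error 0.45, adjusted p = 0.0151). Without untreated replicate 1 it was 2.75 in PRC1CKO (adjusted p = 6.87e-07) and 2.08 in PRC1CPM cells (adjusted p = 4.74e-06). The call was lost in PRC1CKO cells without untreated replicate 3, with a log2 fold change of 1.30 (adjusted p = 0.0640). In PRC1CPM cells it was lost without untreated replicate 3 (1.17, adjusted p = 0.125) and without OHT replicate 1 (1.17, adjusted p = 0.146). DESeq2 called *T* in neither line (log2 fold change 1.37 and 1.35, adjusted p = 0.246 and 0.309). edgeR called it in both (1.435 and 1.356, adjusted p = 0.0122 and 0.0210). Limma without the mean-variance trend called it in neither (adjusted p = 0.0663 and 0.184), at unchanged log2 fold changes of 1.88 and 1.51. In PRC1CPM cells the call was also lost without the filter on low counts (adjusted p = 0.0867), again at 1.51. Fibroblast markers were also high in untreated replicate 1, with a summed normalised read count of 5718 against 2051 and 2695 in PRC1CKO cells and of 14535 against 3732 and 4647 in PRC1CPM cells. In PRC1CPM cells the sum was 14908 in OHT replicate 1 as well, against 4619.7 and 6286. PRC1CKO untreated replicate 1 was the highest untreated library of its line for every gene list, with an ESC marker sum of 74847 against 58631 and 59521, and without it the median of all rows in PRC1CKO cells was 0.29. The most abundant fibroblast marker was *Col1a1*, and the part of these markers in the values of *T* was not tested.

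*Tbx6* (NM_011538), which specifies presomitic mesoderm, lies at chr7:126781483-126785548 with 8 exons. It had 90.9, 46.9 and 66.0 normalised read counts untreated and 55.1, 30.5 and 45.4 after OHT in PRC1CKO cells. For PRC1CPM cells they were 70.3, 65.0 and 65.1 untreated and 72.4, 38.7 and 28.5 after OHT. The conditions overlapped in both lines. For *Tbx6* the log2 change came to -0.61 in PRC1CKO (95% confidence interval -1.41 to 0.18, limma adjusted p = 0.342) and -0.62 in PRC1CPM cells (-1.41 to 0.18, adjusted p = 0.405). Both intervals run from a decrease to a small increase. When each library was left out, the change ran from -0.85 to -0.38 in PRC1CKO and from -0.99 to -0.33 in PRC1CPM cells.

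The genes of the pharynx and heart rose in both lines, and *Tbx1* and *Tbx20* had the largest fold changes of the 10. *Tbx1* (NM_001285476), a regulator of the pharyngeal arches and outflow tract, lies at chr16:18581704-18590671 on the minus strand with 7 exons. It had 11.9, 6.16 and 6.76 normalised read counts in the untreated PRC1CKO libraries, which are 8 reads in each, and 233, 181 and 209 after OHT. Among PRC1CPM libraries it had 30.7, 13.2 and 29.8 untreated and 273, 153 and 179.6 after OHT. For *Tbx1* the log2 change came to 4.54 in PRC1CKO (standard error 0.40, limma adjusted p = 2.89e-13), which is a 23.2-fold change, and 3.03 in PRC1CPM cells (standard error 0.40, adjusted p = 5.28e-08), which is 8.20-fold. A second *Tbx1* row (NM_001285472) gave 4.64 and 3.04. The body of the second row lies within that of the first, so they are not independent.

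*Tbx20* (NM_001205085), a regulator of heart muscle, lies at chr9:24740248-24774303 on the minus strand with 7 exons. It had 40.2, 16.9 and 15.2 normalised read counts untreated and 488, 429 and 464 after OHT in PRC1CKO cells. PRC1CPM libraries had 57.5, 33.0 and 38.0 untreated and 389, 271 and 319.9 after OHT. Every OHT-treated library was several times above every untreated library of its line. For *Tbx20* the log2 change came to 4.33 in PRC1CKO (standard error 0.34, limma adjusted p = 1.11e-14) and 2.93 in PRC1CPM cells (standard error 0.34, adjusted p = 3.54e-09).

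*Tbx5* (NM_011537), which acts in the heart and the forelimb bud, lies at chr5:119834663-119885218 with 9 exons. It had 6 to 14 reads in each untreated library. Its normalised read count was 14.9, 9.23 and 5.07 untreated and 104, 63.9 and 82.0 after OHT in PRC1CKO cells. In the PRC1CPM line the values were 7.67, 5.65 and 19.0 untreated and 75.3, 40.2 and 51.5 after OHT. For *Tbx5* the log2 change came to 3.05 in PRC1CKO (standard error 0.48, limma adjusted p = 1.47e-06) and 2.39 in PRC1CPM cells (standard error 0.48, adjusted p = 0.000191). These values rest on few reads before treatment, and the conditions did not overlap in either line.

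*Tbx4* and *Tbx2* lie beside each other on chromosome 11, and *Tbx5* and *Tbx3* on chromosome 5, each pair on 1 strand with start sites 57.4 and 164 kb apart. All of these but *Tbx3* rose in both lines. *Tbx4* (NM_011536), which acts in the hindlimb bud, lies at chr11:85890063-85916097 with 9 exons. It had 29.8, 23.1 and 21.1 normalised read counts untreated and 320.0, 292 and 247 after OHT in PRC1CKO cells. The PRC1CPM values were 56.3, 48.1 and 38.0 untreated and 315, 238 and 200.5 after OHT. For *Tbx4* the log2 change came to 3.49 in PRC1CKO (standard error 0.33, limma adjusted p = 3.85e-12) and 2.37 in PRC1CPM cells (standard error 0.33, adjusted p = 2.55e-07). No treated library overlapped an untreated one, and a second row (NM_172798) had changes of 3.54 and 2.47.

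*Tbx2* (NM_009324), a repressor that keeps parts of the heart from forming chambers, lies at chr11:85832615-85841948 with 7 exons. It had 17.9, 53.9 and 22.8 normalised read counts untreated and 112, 119 and 124 after OHT in PRC1CKO cells. For PRC1CPM cells they were 47.3, 42.4 and 27.1 untreated and 160.2, 84.3 and 116 after OHT. The conditions did not overlap, although untreated replicate 2 stood above the others in PRC1CKO cells. The log2 fold change was 2.04 in PRC1CKO (standard error 0.39, limma adjusted p = 5.06e-05) and 1.59 in PRC1CPM cells (standard error 0.39, adjusted p = 0.00219), smaller in both lines than that of the adjacent *Tbx4*.

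*Tbx3* (NM_198052), a repressor that acts in limb and mammary development and is transcribed in ESCs, lies at chr5:119670862-119684724 with 8 exons. It had 7333, 6548 and 6032 normalised read counts untreated and 8570.2, 10451 and 10441 after OHT in PRC1CKO cells. Among PRC1CPM libraries it had 3681, 3299 and 3371 untreated and 7509.7, 4915 and 8261 after OHT. Treated libraries lay above untreated ones in each line, and the untreated PRC1CPM libraries lay below those of all other conditions. For *Tbx3* the log2 change came to 0.97 in PRC1CPM cells (standard error 0.20, limma adjusted p = 0.000299), a 1.95-fold change, and 0.56 in PRC1CKO cells (standard error 0.20, adjusted p = 0.0394), a 1.48-fold change that is just under the threshold of 1.5. It passed that threshold in PRC1CKO cells without untreated replicate 1 (0.64, adjusted p = 0.0150) or without OHT replicate 1 (0.66, adjusted p = 0.0499). The antisense transcript *Tbx3os1* is annotated over *Tbx3*, and the counts cannot be told apart.

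*Tbr1* (NM_009322), which specifies deep-layer projection neurons of the cortex, lies at chr2:61804453-61814113 with 6 exons. It had 22.3, 27.7 and 18.6 normalised read counts untreated and 55.1, 45.4 and 33.1 after OHT in PRC1CKO cells. PRC1CPM libraries had 15.3, 33.0 and 29.8 untreated and 50.2, 65.7 and 41.6 after OHT. The conditions did not overlap in either line. For *Tbr1* the log2 change came to 0.92 in PRC1CKO (95% confidence interval 0.055 to 1.78, limma adjusted p = 0.143) and 1.03 in PRC1CPM cells (0.17 to 1.89, adjusted p = 0.112), so that it was not called. With the replicate number as a block it was called in both lines (limma adjusted p = 0.0278 in PRC1CKO and 0.0152 in PRC1CPM cells). In PRC1CPM cells it was also called without the correction by genomic DNA (0.0327) and without the mean-variance trend of limma (0.0414).

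**Figure D3:**
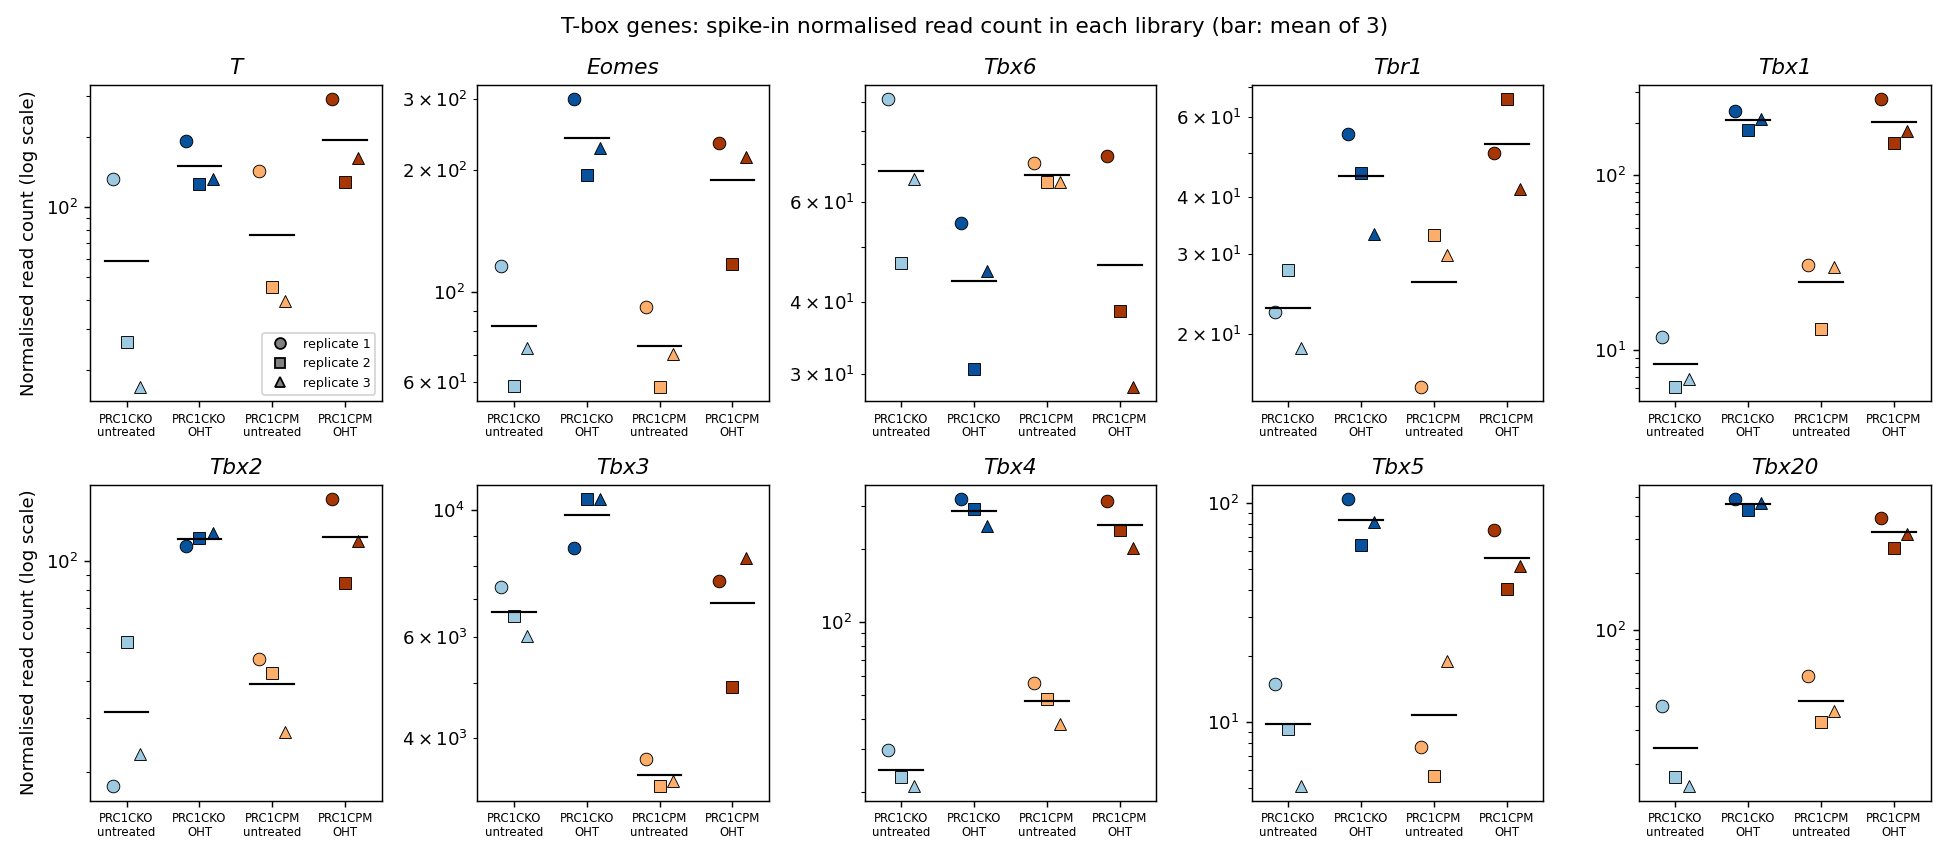
Normalised read count (y axis, log scale, set separately for each gene) of the 10 T-box genes in the 12 libraries, grouped by line and treatment (x axis), with symbols for replicates 1 to 3 and a bar at the mean of 3. For *Tbx1*, *Tbx4*, *Tbx5* and *Tbx20* the treated libraries sit far above the untreated ones, whereas for *T* untreated replicate 1 (133 and 143) overlaps the treated libraries.

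Of the 7 other T-box family genes in the list, 5 were tested, and 3 of them, *Tbx15*, *Tbx18* and *Tbx22*, rose in both lines. *Tbx15*, which acts in the skeleton and skin, had 95.3, 33.9 and 42.3 normalised read counts untreated and 1179.6, 1022 and 1046 after OHT in PRC1CKO cells, a log2 change of 4.36 (standard error 0.33, limma adjusted p = 3.83e-15). *Tbx18*, which acts in the epicardium and ureter, had 11.9, 4.62 and 8.46 untreated and 252, 265 and 253 after OHT in the same line, a log2 change of 4.87 (standard error 0.39, adjusted p = 1.94e-14). In PRC1CPM cells the changes of *Tbx15* and *Tbx18* were 3.48 and 2.92, and *Tbx18* was also higher in untreated PRC1CPM than untreated PRC1CKO cells, by 1.43 (adjusted p = 0.0311). *Tbx22* rested on at most 18 reads in a library, and its call in PRC1CKO cells (2.23, adjusted p = 0.0315) was lost without PRC1CKO untreated replicate 3, OHT replicate 2 or OHT replicate 3 (adjusted p = 0.207, 0.193 and 0.0514). The changes of *Tbx21*, a regulator of T helper cells, and of *Mga*, which also carries a MYC-like domain, were 0.76 and -0.12 in PRC1CKO cells (adjusted p = 0.268 and 0.781) and were not called. *Tbx10* and *Tbx19* had at most 8 and 12 reads and were not tested.

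The lines were compared with each other at each treatment. In untreated cells *Tbx1* was higher and *Tbx3* lower in PRC1CPM than in PRC1CKO cells, while 2.21% of all rows were called higher and 0.478% lower. The log2 difference of *Tbx3* was -0.94 (standard error 0.20, limma adjusted p = 0.00319), with no overlap between the lines. That of *Tbx1* was 1.42 (standard error 0.40, adjusted p = 0.0346), on 8 reads in each PRC1CKO and 14 to 24 reads in each PRC1CPM library. Leaving out PRC1CKO untreated replicate 2 or 3, PRC1CKO OHT replicate 3, or PRC1CPM untreated replicate 1 or 3 gave *Tbx1* adjusted p-values of 0.126, 0.137, 0.0503, 0.155 and 0.153. *Tbx4* and *Tbx20* differed by 0.91 and 0.90 (adjusted p = 0.144 and 0.174). With the replicate number as a block, *T*, *Tbx4* and *Tbx20* were called higher as well (adjusted p = 0.0359, 0.00239 and 0.00170), where 1631 of the 16940 rows were called higher.

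After OHT no T-box gene was called between the lines (0 of 10), where 1.47% of all rows were. The limma log2 differences ran from -0.59 for *Tbx5* (95% confidence interval -1.56 to 0.38) to 0.31 for *T* (-0.60 to 1.21), and 1 gene had an unadjusted p under 0.05, as did 1862 of the 16940 rows. This gene was *Tbx3*, at -0.54 (-0.94 to -0.13, adjusted p = 0.211), with 8570.2 to 10451 normalised read counts in PRC1CKO and 4915 to 8261 in PRC1CPM libraries. With the replicate number as a block its limma adjusted p was 0.000919, and the fold threshold was still missed. *Tbx1* reached means of 208 ± 25.9 and 202 ± 63.1 (SD, n = 3) in treated PRC1CKO and PRC1CPM cells. *Tbx20* reached 461 ± 29.5 and 327 ± 59.1, with no overlap between the lines.

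The difference of the OHT effects was tested as the interaction of line and treatment, in which 0.0236% of all rows passed. Without a replicate block, none of the 10 T-box genes passed with limma, edgeR or DESeq2 (0 of 10), and 3 had an unadjusted limma p under 0.05, as did 497 of the 16940 rows. These were *Tbx1* at -1.502 (95% confidence interval -2.63 to -0.38), *Tbx20* at -1.41 (-2.38 to -0.43) and *Tbx4* at -1.12 (-2.06 to -0.18), each with a smaller increase in PRC1CPM cells. Their adjusted p-values ranged from 0.878 to 1.00, and with the replicate number as a block *Tbx20* and *Tbx1* passed (adjusted p = 0.00311 and 0.0248), as did 78 rows with a larger and 246 with a smaller effect in PRC1CPM cells. *Tbx3* was the gene with the highest value, 0.40 (-0.17 to 0.97). The interaction and the comparison of untreated cells share the 6 untreated libraries. For *Tbx1*, *Tbx20* and *Tbx4* the untreated differences were 1.42, 0.90 and 0.91, and the differences after OHT were -0.08, -0.51 and -0.21.

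**Figure D4:**
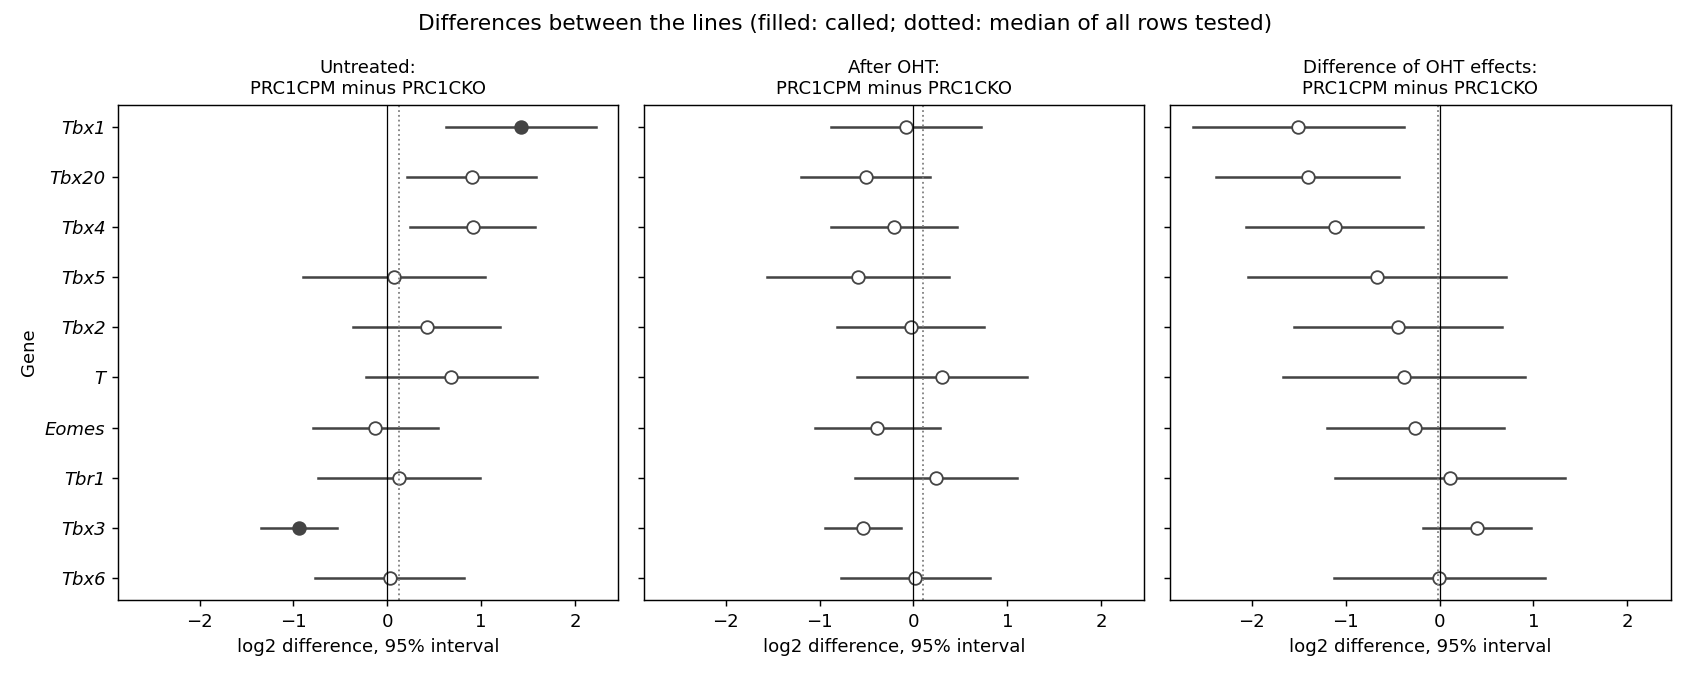
Log2 difference, PRC1CPM minus PRC1CKO (x axis), with 95% confidence intervals for each T-box gene (y axis) in untreated cells, after OHT, and for the difference of the OHT effects, with filled points for genes called and a dotted line at the median of all rows. *Tbx1* (1.42) and *Tbx3* (-0.94) are called in untreated cells, and no point is filled in the other panels.

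Genes that act with T-box factors in the same tissues were taken from lists. The counts of each list stand beside 16.5% of all rows called higher in PRC1CKO and 13.1% in PRC1CPM cells. Of the 14 primitive streak and mesendoderm genes tested, 8 rose and 1 fell in each line, with median log2 fold changes of 1.55 in PRC1CKO and 1.30 in PRC1CPM cells. *Mesp2* was called in PRC1CKO cells alone and *Gsc* in PRC1CPM cells alone. *Mixl1* was not called (limma adjusted p = 0.0513 and 0.317). The list held 18 genes, and *Mesp1*, *Msgn1* and *Cer1* had too few reads to be tested. *Wnt3a*, a signal that maintains the streak, rose by 2.40 and 2.80, *Rspo3*, an enhancer of WNT signalling, by 2.59 and 2.49, and *Foxa2*, a factor of definitive endoderm, by 2.80 and 2.87. The change of *Foxa2* started from low untreated means, 5.60 normalised read counts in PRC1CKO and 2.38 in PRC1CPM cells. *Dll1*, a Notch ligand of presomitic mesoderm, fell by 1.17 and 1.43. The PRC1CPM count dropped to 3 without PRC1CPM untreated replicate 3, to 4 without PRC1CPM OHT replicate 1 and to 4 with DESeq2.

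Of the 8 cardiac genes tested, 7 rose in each line, *Nkx2-5*, *Gata4*, *Gata6*, *Hand1*, *Hand2*, *Isl1* and *Mef2c*, with median log2 fold changes of 2.82 and 2.09. The list held 10 genes, and *Nppa*, *Gja5* and *Smpx* were not among those called. *Nppa* had 0 reads in every PRC1CKO library, before and after OHT. *Hand2* had 0 reads in the untreated PRC1CKO libraries, so no fold is given for it. *Gata6*, a factor shared by heart and endoderm, had a mean of 156 ± 94.7 untreated and 1102 ± 232 after OHT in PRC1CKO cells (SD, n = 3) and rose by 2.96 in PRC1CKO and 2.26 in PRC1CPM cells. *Gata4*, a partner of TBX5, rose by 2.14 in PRC1CKO and 1.63 in PRC1CPM cells. Of the 5 limb genes tested, 4 rose in PRC1CKO cells and 2 in PRC1CPM cells, and *Pitx1*, which acts upstream of *Tbx4* in the hindlimb, had the largest change, 5.52 and 3.58. The limb count dropped to 2 in PRC1CKO cells without PRC1CKO OHT replicate 3, and to 1 in PRC1CPM cells without PRC1CPM OHT replicate 1. Of the 9 cortical genes tested, 7 rose in PRC1CKO and 6 in PRC1CPM cells, among them *Reln*, a secreted guide of cortical layers (3.05 and 2.36), and *Lhx2*, a selector of cortical progenitors (3.92 and 3.02).

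Markers of other cell types were examined in the same libraries. Of 8 primitive endoderm markers, 5 rose in PRC1CKO and 7 in PRC1CPM cells. Their summed normalised read count was 9244, 5275 and 4707 untreated and 9397, 7155 and 6909 after OHT in PRC1CKO cells, and 6309.9, 4788 and 5657 untreated and 7750.1, 4628 and 6944 after OHT in PRC1CPM cells. *Lama1*, their most abundant gene in every library, was not called in either line, and none of the 8 was at 0. Trophoblast markers, which matter beside *Eomes*, rose for 3 of the 7 tested in each line, and for 5 in PRC1CKO cells without PRC1CKO untreated replicate 1. Their sum was 1603, 878 and 913 untreated and 2014, 1456 and 1691 after OHT in PRC1CKO cells, and 1685, 1135 and 1137 untreated and 2652, 1654 and 1959 after OHT in PRC1CPM cells. *Tead4* or *Plet1* was the most abundant, and *Elf5*, which defines trophoblast stem cells, had too few reads to be tested. Of 6 fibroblast markers, *Thy1* and *Twist2* rose and *Postn* fell in PRC1CKO cells, and *Twist2* rose in PRC1CPM cells, while the 6 had median log2 changes of -0.014 and -0.029. Leaving out 1 library at a time gave 1 to 2 higher and 0 to 2 lower in PRC1CKO cells. The count of 1 higher came without PRC1CKO untreated replicate 2 or 3, any PRC1CKO OHT replicate, or replicate 3 of either PRC1CPM condition, and that of 0 lower without PRC1CKO untreated replicate 1 or OHT replicate 3. In PRC1CPM cells the counts ran from 1 to 2 higher, the 2 without PRC1CPM untreated replicate 1, and from 0 to 1 lower. Of the 10 ESC markers, *Sox2*, *Klf2* and *Utf1* fell in PRC1CKO cells and *Klf2* in PRC1CPM cells. *Gata4*, *Gata6*, *Foxa2* and *Hand1* stand in several of these lists. The part of these cell types in the T-box results was not tested.

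Around the T-box genes, 99 other tested genes had a body that reached within 500 kb of a start site. Of these, 10 (10.1%) were called higher and 4 lower in PRC1CKO cells, and 5 (5.05%) higher and 3 lower in PRC1CPM cells, beside the 16.5% and 13.1% of all rows called higher. Of the 99, 48 lie around *Tbx6*, with 1 called higher and 4 lower in PRC1CKO cells, and 0 higher and 3 lower in PRC1CPM cells. All of the lower calls lie there, and the pooled shares lean on this locus. *Pde10a*, a phosphodiesterase 92.4 kb from *T*, rose by 3.06 in PRC1CKO and 1.90 in PRC1CPM cells. *Gp1bb*, a platelet receptor subunit, and *Sept5*, a septin, start upstream of *Tbx1*, at -31.7 and -39.3 kb from its start site, and rose by 2.58 and 2.06 in PRC1CKO and by 2.25 and 1.86 in PRC1CPM cells. They overlap each other and may share reads. *Dpy19l2*, which acts in sperm head formation, 78.0 kb from *Tbx20*, rose by 2.93 and 2.34. The noncoding *2610027K06Rik*, which starts 0.227 kb from *Tbx2* on the other strand, had no reads in the untreated PRC1CKO libraries and a mean normalised read count of 14.6 after OHT. It was not called after OHT in PRC1CPM cells (adjusted p = 0.324), and was called higher in untreated PRC1CPM than untreated PRC1CKO cells (adjusted p = 0.00543). Around *Tbx6*, the most gene-rich of the loci, 48 genes were tested, and *Nupr1* and *Sept1* fell in both lines, by 1.83 and 2.01 and by 2.51 and 1.55.

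**Figure D5:**
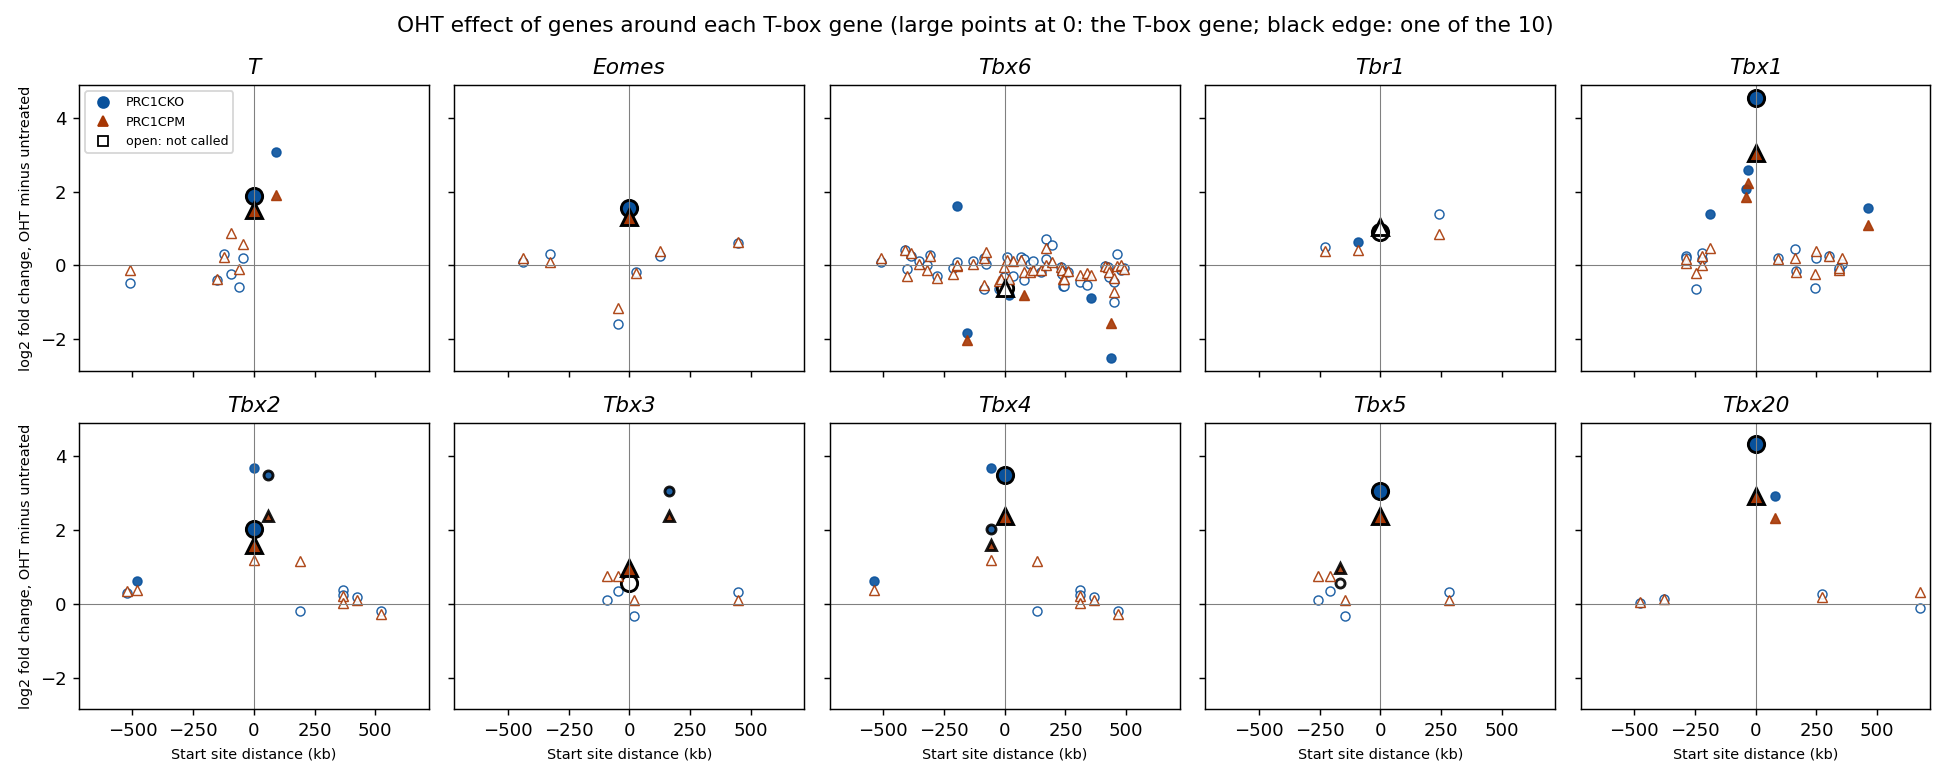
Log2 fold change after OHT (y axis) of genes around each T-box gene against the distance between start sites in kb, positive in the direction of transcription (x axis), for PRC1CKO (circles) and PRC1CPM cells (triangles), with filled symbols for genes called. The T-box gene itself is the large symbol at 0, and black edges mark T-box genes that are neighbours of each other, such as *Tbx4* (3.49 in PRC1CKO cells) beside *Tbx2*.

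The genes whose log2 levels followed those of 3 T-box genes most closely over the 12 libraries were found among 15791 others. For *T* they were *Hacd4*, *Celf6* and *Robo2* (Pearson's r = 0.985, 0.982 and 0.979), of which *Robo2* was called higher in PRC1CKO cells and the others in neither line. For *Eomes* they were *AU015836*, *Bcorl1* and *Myof* (0.984, 0.981 and 0.981), all called higher in both lines. For *Tbx3* they were *Trak2*, *Ankrd44* and *Glis2* (0.966, 0.964 and 0.964), and *Ankrd44* and *Glis2* were also lower in untreated PRC1CPM cells, by 0.92 and 0.79. These values describe 12 libraries that share lines, treatments and replicate numbers.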

How the data were processed

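Total RNA was depleted of rRNA, made into directional libraries and sequenced in pairs. The submitters' processing notes name Bowtie2, STAR, SAMtools, bedtools, DESeq2 and the builds mm10 and dm6. The deposited signal values are read counts over RefSeq gene bodies that the authors divided by a spike-in size factor corrected with sequenced genomic DNA. Whether counting used strand was not given in the sources used here. Reads were recovered as whole numbers for 100% of values (tolerance 0.02 read). The 12 genomic DNA samples were not analysed here, and the authors' own fold changes, adjusted p-values and gene groups, which hold their findings, were not used.

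Rows that reached 10 reads in 3 or more libraries entered limma 3.58.1 in R 4.3.3 on log2(value + 1), with 4 group means, an empirical Bayes trend on the mean, and adjusted by Benjamini-Hochberg over 16940 rows. The limma model is named for every adjusted p unless another tool stands beside it. In fits with the replicate number as a block the spread is taken almost wholly from the trend. Their p-values therefore rest little on the spread of each gene itself. The fold understates changes of low genes. edgeR 4.0.16 and DESeq2 1.42.0 were run on the recovered reads as alternatives, and each was tested on simulated data. The simulation gave all genes the same relative spread, with no replicate effect and no doubled reads. It therefore does not cover these features of the data. Python 3.11.15, pandas 2.3.3 and matplotlib 3.10.9 made the summaries and plots. Precision was limited by 3 replicates a group. No pair of replicates agreed within sampling noise.

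The members and gene lists were chosen with earlier results of these data known. Named genes were the 10, *Rnf2* and *Ring1*, the other T-box genes, genes of the lists that were called or changed most, genes within 500 kb, and the 3 genes most like *T*, *Eomes* and *Tbx3*. Outside this rule, *Pou5f1*, *Nanog*, *Lama1*, *Tead4*, *Elf5* and *Col1a1* were named as typical, untested or most abundant markers after their values were seen. *Nppa*, *Gja5*, *Smpx*, *Mixl1*, *Mesp1*, *Msgn1* and *Cer1* were also named outside it, as listed genes that were untested or not called. Deviations from group means correlated over same-numbered libraries (mean r = 0.205 over 18 pairs, lowest 0.0988) and not over others (mean -0.102 over 36). By this check the numbers paired the samples for the PRC1CPM OHT effect and the comparisons between lines at 1 treatment. For the PRC1CKO OHT effect the same-numbered pairs had r = 0.179, 0.0988 and 0.148, and the others ran from -0.116 to -0.0219. Of the 18 same-numbered pairs, 17 had r above 0.1, and the pair at 0.0988 did not. The pairing was therefore weaker for the PRC1CKO OHT effect, and the interaction also uses these libraries.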

Additional observations from a re-analysis of the deposited data

How the results depend on the processing

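No OHT effect of the 10 genes changed direction in either line under any alternative. Many alternatives could not change it. Other thresholds or filters, the block, the trend setting, and leaving out a library of the other line keep the log2 fold change itself. Direction could change only under other tools, scalings or pseudocounts, or without a library of the same line. Of 500 values, 481 kept their side of the threshold, 13 lost and 6 gained a call. Leaving out each library in turn gave 6 to 8 genes called higher in PRC1CKO and 7 to 8 in PRC1CPM cells. Against a 1.5-fold change (treat), 4 were called higher in PRC1CPM cells (*Tbx1*, *Tbx20*, *Tbx4* and *Tbx5*). With the replicate number as a block, 8 were called in PRC1CKO and 9 in PRC1CPM cells, *Tbr1* being added, and 2 (*Tbx1* and *Tbx20*) had a smaller OHT effect in PRC1CPM cells. Between the OHT-treated lines, TMM scaling called 1 gene lower in PRC1CPM than in PRC1CKO cells (*Tbx3*, -0.64, adjusted p = 0.0135). Under TMM 524 rows were called higher and 261 lower in this comparison, against 212 and 37 in the main fit. Genes called higher in untreated PRC1CPM cells numbered 0 at an adjusted p under 0.01, under treat, without the genomic DNA correction, without the filter and without the trend. They numbered 3 under TMM, 4 with the block and 0 to 4 when each library was left out, the 4 without PRC1CKO untreated replicate 1, while the rows called higher rose from 374 to 745 under TMM, 1631 with the block and 1492 without that library. Under treat 0 were called lower. Differences between the lines reversed sign in 47 of 720 values, among them that of *T* after OHT, which ran from -0.02961 to 0.5566 when each library was left out. Over all rows, 2787 higher and 524 lower calls in PRC1CKO cells became 3435 and 823 with the block, 2845 and 1133 under TMM and 1436 and 84 under treat. The 2226 and 237 in PRC1CPM cells became 3033 and 461, 2396 and 595, and 951 and 32, and without the genomic DNA correction 3429 and 68. These PRC1CPM counts were 1439 and 336 without PRC1CPM OHT replicate 1, and 2388 and 123 without PRC1CPM OHT replicate 2. The 4 interaction calls, all lower, became 78 higher and 246 lower with the block, in which the spread is taken almost wholly from the trend. The 374 higher and 81 lower calls between untreated lines became 1631 and 253 with the block and 51 and 5 under treat. The 212 and 37 after OHT became 1131 and 232 with the block and 28 and 4 under treat. They were 81 and 45 without PRC1CPM OHT replicate 1, and 399 and 78 without PRC1CKO untreated replicate 1. The cause was not tested, and *Tbx5* (6 to 14 per library) and *Tbx1* (8 in each PRC1CKO library) rest on few reads in untreated cells.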
